A study of Mus musculus with 2 samples.

Results

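Genes of the nuclear pore complex and of the transport machinery that works through it were examined for N6-methyladenosine (m6A) in mouse retinal organoids. Members were chosen by gene name alone: nucleoporins with a numbered name, importins, exportins, transportins, Ran, the Ran-binding proteins, Rangap1, Rcc1, Cse1l, Nutf2, Tpr and Nxf1. Of 8262 named genes listed in the tables, 53 were members. A site was a listed transcript position with at least 20 reads in replicate 2, and its replicate 1 value was used wherever that library listed the same position. This gave 215 sites in 41 genes, of 16212 sites in 3919 named genes in the whole series. Replicate 1 listed 159 of the 215 sites, and 60 sites in 18 genes had at least 20 reads in both libraries.

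The RNA came from wild-type organoids of the Rx:GFP line, a mouse stem cell line in which GFP reports the eye-field gene Rax, after 6 days of differentiation with AGN at 0.1 µM. Such organoids are stem-cell-derived aggregates. Both libraries belong to this 1 group, so no conditions were compared, and they carry the same batch label. Nothing says whether they came from separate cultures, so the spread between them may be technical. Poly(A) RNA was read directly on nanopores, without copying, and modified bases were scored from the current. Eye-field transcripts were present, Rax with up to 61 reads in replicate 1 and 80 in replicate 2 and Lhx2 with up to 111 and 261, whereas the pluripotency genes Pou5f1, Nanog, Zfp42 and Klf4 were not listed in either library.

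The nuclear pore complex is a ring-shaped channel through the nuclear envelope, built from nucleoporins. Outer and inner rings form its scaffold, nucleoporins rich in phenylalanine-glycine repeats fill the channel, and a cytoplasmic face and a nuclear basket complete it. Importins and exportins carry cargo through the channel, and the small GTPase Ran sets the direction: Rcc1 loads Ran with GTP in the nucleus, and Rangap1 with Ran-binding proteins triggers GTP hydrolysis in the cytoplasm. m6A is placed on messenger RNA in the nucleus, mostly in the sequence context called DRACH, and methylated messenger RNA leaves the nucleus through these pores.

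Every listed position lies in 1 of 4 motifs of 5 bases, given here in DNA letters as deposited. They are shown because the measured fraction differs between them, and the capital marks the central adenosine of each motif.

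motif ending in A: ggAca
first motif ending in T: ggAct
motif ending in C: ggAcc
second motif ending in T: agAct

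Among the 215 sites, 88 lay in GGACA (40.9%, against 35.6% of all sites), 53 in GGACT, 42 in AGACT and 32 in GGACC. The motif ending in C made up 14.9% of the members' sites and 22.1% of all sites. The fraction modified, a deposited value from 0 to 1 for each position whose denominator is not stated, had a median of 0.641 in replicate 2 at the members' GGACA sites. It was 0.227 at AGACT, 0.179 at GGACT and 0.141 at GGACC. Over all sites of the series the same medians were 0.667, 0.263, 0.230 and 0.231. At the sites with 20 or more reads in both libraries, the median was 0.630 ± 0.0524 (SD, n = 2) over 25 GGACA sites, 0.262 ± 0.0237 over 13 AGACT sites, 0.140 ± 0.0435 over 14 GGACT sites and 0.0895 ± 0.0198 over 8 GGACC sites. Over all sites of that depth the values were 0.677 ± 0.0147, 0.258 ± 0.0118, 0.258 ± 0.0118 and 0.222 ± 0.00760 in the same order. At this depth in both libraries, the members' GGACC sites ran from 0.0455 to 0.795 in replicate 2 and their GGACT sites from 0 to 0.657. The latter count 1 Ran motif on both of its transcripts. The SD covers the libraries and not this spread between sites, so no difference from the series is drawn from these medians. The motif ending in A stood above each of the others in both libraries. With 2 replicates an exact paired permutation test cannot give a p-value under 0.5, so neither this gap nor any difference between the members and other genes was tested further.

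Over sites of all motifs with 20 or more reads in replicate 2, the transport genes had nearly the median of the whole series. Their median fraction was 0.375 in replicate 1 (159 sites) and 0.348 in replicate 2 (215 sites), and over all sites it was 0.375 and 0.345. A fraction of 0.5 or more was found at 80 member sites in replicate 2, which is 37.2% (95% Wilson interval 31.0% to 43.8%, counting error only), against 37.5% of all sites. A fraction of 0.9 or more was found at 28 (13.0%, interval 9.17% to 18.2%; background 10.6%), and one of 0.1 or less at 42 (19.5%, interval 14.8% to 25.3%; background 16.6%). Each background share fell inside the members' interval. Compared with the median of their own motif over all sites, 101 member sites were higher and 114 lower, with a median difference of -0.04. At the 60 sites with 20 or more reads in both libraries the members' median was lower, 0.321 in replicate 1 and 0.272 in replicate 2 (mean 0.296 ± 0.0343, SD, n = 2), against 0.375 and 0.362 over all 5221 such sites (0.368 ± 0.00940). Ran alone supplied 7 of these 60 sites.

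**Figure D1:**
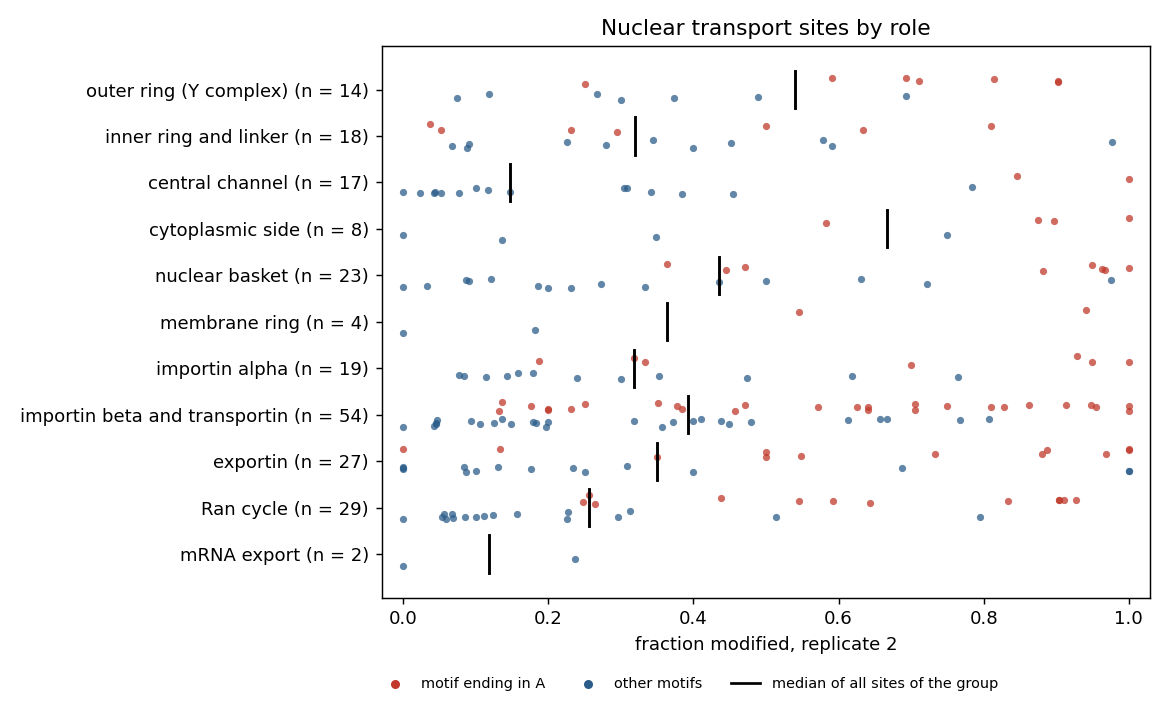
Fraction modified in replicate 2 (x axis, 0 to 1) of the 215 sites, 1 point per site, in rows by the role of the gene; red points are motifs ending in A, blue points the other motifs, vertical jitter has no meaning, and the black bar is the group median. Red points lie mostly to the right and blue points to the left in most rows, and the row medians run from 0.118 for mRNA export (2 sites) to 0.667 for the cytoplasmic side (8 sites).

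Within single genes the order of the motifs was much as in the rest of the series. In the 21 genes with at least 2 sites of the A-ending motif and 2 of the others, the median of the A-ending sites was higher in replicate 2 in 19 (90.5%), against 87.4% of the 1072 such genes of the series. The exceptions were Ipo5, with a median of 0.176 at 3 A-ending sites against 0.372 at 5 others, and Xpo1, with 0.524 at 6 against 0.617 at 2. Near-complete sites were mostly of this motif: 24 of the 88 GGACA sites reached 0.9 in replicate 2 (27.3%, background 24.2%), against 4 of the 127 other sites (3.15%, background 3.08%). These 4 were GGACT at position 317 of Xpo1 (1 over 32 reads, not listed in replicate 1), GGACT at position 3658 of Xpo5, GGACC at position 4806 of Nup188 and GGACT at position 4536 of Nup50. At the last 3, replicate 1 was at 1 throughout (15, 18 and 18 reads), and replicate 2 gave 1, 0.977 and 0.976 (41, 52 and 45 reads). Conversely, 3 GGACA sites were at 0.1 or less in replicate 2 (3.41%, background 6.05%). These lay in Xpo6 at position 2209 (0 over 8 and 24 reads), Nup93 at position 680 (0 over 17 reads and 0.0370 over 35) and Nup188 at position 2775 (0.0526 over 30 reads, not listed in replicate 1).

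The Ran cycle held the most deeply read member, Ran itself, and all 6 of its listed genes had a site. Ran (chromosome 5, 129097133 to 129101387; gene coordinates here and below are the deposited ones) reached 790 reads in replicate 1 and 1328 in replicate 2, rank 56 of 8057 genes by deepest position in replicate 2. On its main transcript, ENSMUST00000031383.13, the GGACA at position 187 stood at 0.920 in replicate 1 (548 reads) and at 0.910 in replicate 2 (929 reads). The GGACA at position 416 had 0.259 over 737 reads and 0.265 over 1271. Sites with the same 5 letters on 1 transcript therefore differed by more than 0.6 in each library, while each repeated to within 0.01 between libraries. The GGACT at position 1056 (0.0587 and 0.0672) and the AGACT at position 1114 (0.0868 and 0.100) were low in both.

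A second Ran transcript, ENSMUST00000111343.1, carried the same 3 downstream motifs shifted by 46 bases. Its GGACA at position 462 had 0.385 over 73 reads and 0.256 over 175, against 0.259 and 0.265 at the matching position 416 of the main transcript. The GGACT at position 1102 had 0.0952 and 0.0532, and the AGACT at position 1160 had 0.113 and 0.0688. In replicate 1 each of these 3 fractions was above that of the main transcript, and in replicate 2 each was below it, so the transcripts showed no difference that repeated. How reads were assigned between the transcripts is not given in the sources used here.

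The other genes of the cycle were read less deeply. Nutf2, which returns Ran to the nucleus (chromosome 8, 106587212 to 106605962), had 1 site, a GGACC at position 368 with 0.0621 over 195 reads and 0.0853 over 342. Ranbp1, a co-activator of Ran GTP hydrolysis (chromosome 16, 18057648 to 18066596), had 3 sites. Its GGACA at position 188 had 0.718 over 110 reads in replicate 1 and 0.438 over 203 in replicate 2, a difference of -0.28. This was the widest gap among the 60 sites with 20 or more reads in both, and of the 18 member sites with at least 50 reads in both it was the only one beyond 0.2. The Ranbp1 sites at positions 424 (0.0741 and 0.124) and 449 (0.284 and 0.248) varied less.

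Rcc1, the nucleotide exchange factor of Ran (chromosome 4, 132059230 to 132080916), carried both extremes on 1 transcript. Its GGACA at position 495 had 0.941 over 21 reads and 0.903 over 36, and the GGACA at position 1426 had 1 over 27 reads and 0.903 over 36. Its GGACT at position 1753 was at 0 in both, over 29 and 39 reads. Less-covered Rcc1 transcripts listed in replicate 2 repeated these values: the sites that correspond to 1426 had 0.875 over 12 and over 11 reads, and one that corresponds to 1753 had 0 over 13 reads. They also listed an AGACT that was nearly as high as the GGACA, with 0.857 over 13 reads and 0.833 over 16. On the main Rcc1 transcript, replicate 1 alone listed a GGACA at position 555 with 0.5455 over 22 reads and a GGACT at position 932 with 0.125 over 23.

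Rangap1, the Ran GTPase-activating protein (chromosome 15, 81588449 to 81629731), had 4 sites on 2 transcripts. The GGACA at position 2554 had 0.704 over 35 reads and 0.643 over 52, and that at position 2602 of the other transcript had 0.571 over 22 and 0.593 over 47. Both keep the same spacing to a GGACT upstream and a GGACC downstream that replicate 1 alone listed on each transcript. They are therefore likely 1 motif, which the Rangap1 mean below counts on both transcripts. The AGACT at position 1028 was at 0 over 21 reads in replicate 1 and at 0.227 over 39 in replicate 2. Ranbp3, a cofactor of nuclear export (chromosome 17, 56980294 to 57018764), had the most sites of the group, 10. Its highest was the GGACA at position 730, with 0.929 over 14 reads and 0.927 over 46. The GGACC at position 1383 was also high, with 0.933 over 21 and 0.795 over 56, and the GGACT at position 2315 was low, with 0.174 over 29 and 0.0566 over 69. Over sites with 20 or more reads in both libraries, the mean fraction was 0.260 ± 0.0199 in Ran (7 sites), 0.314 ± 0.0628 in Ranbp1 (3), 0.456 ± 0.0442 in Rangap1 (3), 0.491 ± 0.0287 in Ranbp3 (5) and 0.625 ± 0.0318 in Rcc1 (3; each SD, n = 2).

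**Figure D2:**
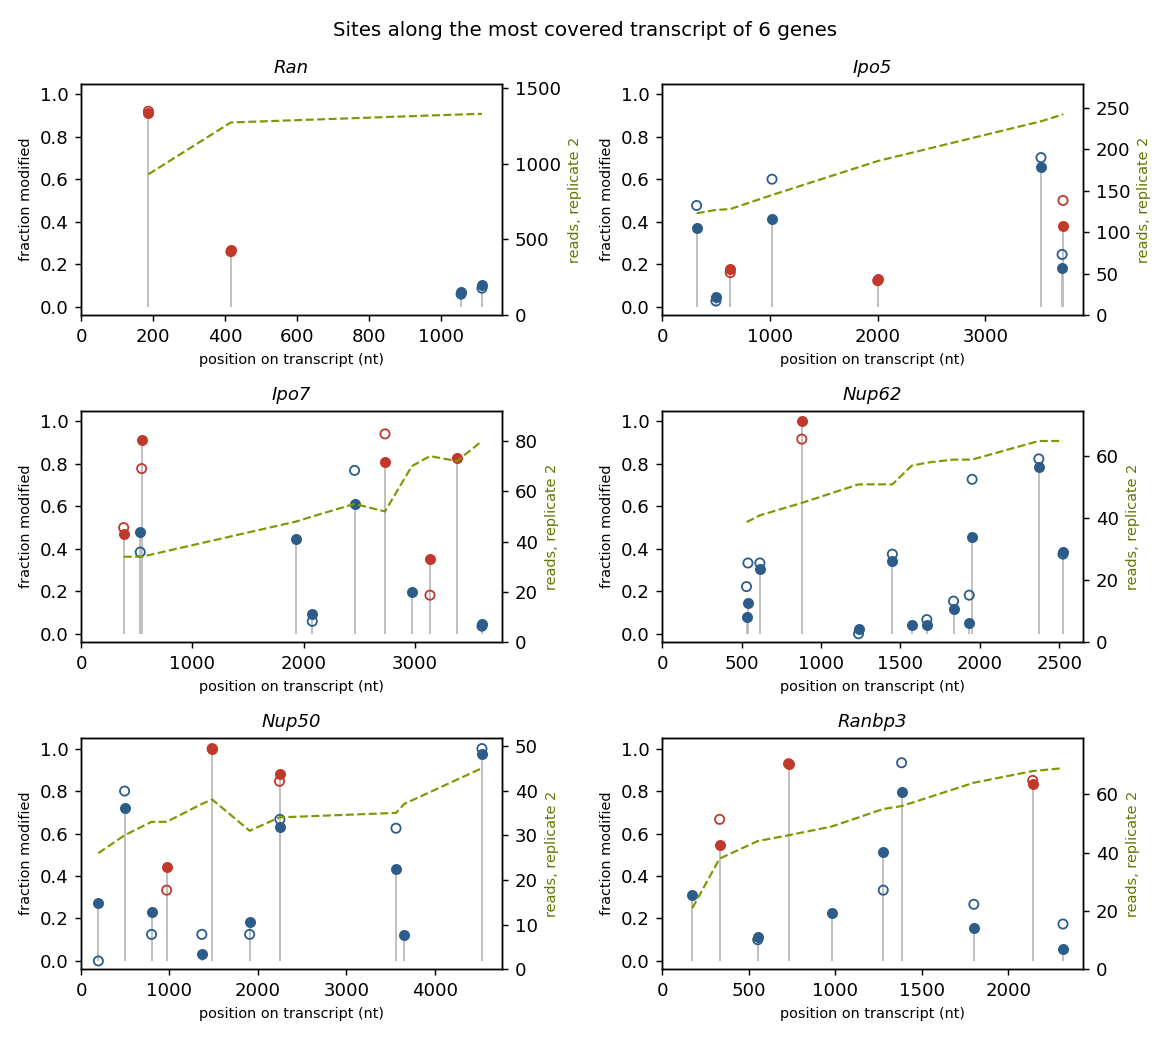
Fraction modified (left axis) against position on the most covered transcript (x axis, nucleotides) for 6 genes; filled points are replicate 2, open points replicate 1, red marks motifs ending in A and blue the others, and the dashed green line (right axis) is the replicate 2 read count at the sites. In Ran 1 high site is followed by 3 low ones, and coverage rises from the first to the last site, from 929 to 1328 reads in Ran and from 123 to 243 in Ipo5.

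Importins of the beta family and transportins, which bind cargo or adaptors and carry them through the channel, formed the largest group, with 54 sites in 9 of 12 listed genes. Ipo5 (chromosome 14, 121148636 to 121185411) was the deepest, and all 8 of its sites had at least 20 reads in both libraries, with a mean of 0.324 ± 0.0425 (SD, n = 2). Its highest was a GGACT at position 3517, with 0.702 over 101 reads and 0.657 over 234. Its GGACA sites were low: 0.160 and 0.176 at position 632, 0.122 and 0.131 at position 2001, and 0.5 and 0.377 at position 3721. The lowest was a GGACT at position 499, with 0.0263 over 39 reads and 0.0450 over 127. At these sites Ipo5 thus ran against the order of motifs seen in most members, in both libraries. Replicate 1 alone also listed an AGACT at position 708 with 0.214 over 41 reads and one at 1714 with 0.148 over 62. These low values narrow the reversal in that library.

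Ipo9 (chromosome 1, 135310050 to 135358237) had the most sites of any member, 15 on 1 transcript, ranging from 0.125 to 0.808 in replicate 2. Replicate 1 listed 9 of them and gave 20 or more reads at 2: 0.733 over 21 reads at position 3314, where replicate 2 had 0.640 over 65, and 0.357 over 22 at position 4062, where it had 0.385 over 63. Ipo7 (chromosome 7, 109617481 to 109655816) had 11 sites, from 0.0462 at the GGACT of position 3600 (0.0357 in replicate 1) to 0.913 at the GGACA of position 544 (0.778 over 16 reads in replicate 1). Ipo4 had 7 sites, at most 28 reads, and a highest paired value of 0.733 and 0.667 at the AGACT of position 3338. Tnpo3, which imports splicing factors (chromosome 6, 29540826 to 29609886), had 7 sites between 0 and 0.955 in replicate 2 and at most 7 reads at them in replicate 1. Ipo8, Ipo11 and Ipo13 had 1, 3 and 1 sites.

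Kpnb1, importin beta itself (chromosome 11, 97050540 to 97078707), had only 1 site by the rule, a GGACT at position 5628 with 0.208 over 35 reads and 0.179 over 123. Replicate 1 listed 3 further positions upstream that replicate 2 did not list at any depth. They were a GGACA at position 1854 with 0.896 over 52 reads, a GGACC at position 3286 with 0.786 over 91 and an AGACT at position 3825 with 0.175 over 110. The single Kpnb1 site therefore does not describe the range of fractions on this transcript.

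Importin alpha proteins are the adaptors that recognise classical nuclear localisation signals, and 4 of the 5 listed genes had 19 sites in all. Kpna2 (chromosome 11, 106879455 to 106890367) was the deepest, with a GGACC at position 1310 of 0.191 over 177 reads and 0.114 over 356. A GGACC at position 1783 had 0.178 over 377 reads in replicate 2 and was not listed in replicate 1, while a GGACT at position 1432 had 0.282 over 179 reads in replicate 1 and was not listed in replicate 2. Kpna4 (chromosome 3, 68974482 to 69034446) had GGACA sites, which Kpna2 did not, and they were high: those at position 2303 of one transcript and 2282 of the other, an offset of 21 bases, had 1 and 1 in replicate 1 (11 and 9 reads) and 1 and 0.95 in replicate 2 (25 and 28 reads). Its AGACT sites were lower, within the range of Kpna2, with 0.143 at position 2384 in replicate 2 alone and with 0.286 and 0.3 at position 2830. Kpna1 had the most sites of the group, 9, with a median of 0.318 in replicate 2. Kpna3 had 1 site, with 0.5 over 14 reads and 0.619 over 51.

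Exportins carry proteins and RNA out of the nucleus, and 5 of 7 listed genes had 27 sites. Cse1l, which returns importin alpha to the cytoplasm (chromosome 2, 166747960 to 166788309), was the only one with 20 or more reads in both libraries. The GGACA sites at positions 3174 and 3532 had 0.912 and 1 in replicate 1 and 0.887 and 0.969 in replicate 2. The GGACT sites at positions 3101 and 3601 had 0.146 and 0.167 in replicate 1 and 0.0866 and 0.131 in replicate 2. The GGACA sites were above the GGACT sites in each library. Replicate 1 alone listed further Cse1l positions between these values: a GGACA at position 3259 with 0.744 over 69 reads, and a GGACT at 641 and a GGACC at 1137 with 0.273 each, over 28 and 33 reads. The read counts were 66 and 197 at position 3101, and 22 and 70 at position 3532.

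Xpo1, the main export receptor for proteins (chromosome 11, 23206041 to 23248249), had the most sites of the group, 8 on 2 transcripts. Of these, 2 positions were seen on both transcripts, 207 bases apart, with 0.5 and 0.548 at the first pair and 0.133 and 0.350 at the second in replicate 2 (20 to 55 reads). Xpo6, which exports actin, held 7 sites that were mostly at one end or the other: 4 were at 0 in replicate 2, and 1 was at 1 over 24 reads. In replicate 1 the 3 of these 4 that it listed were also at 0, and the high site was at 1, over 8 to 10 reads. Xpo5, which exports microRNA precursors, had 2 sites, and Xpot, which exports transfer RNA, had 6 between 0.177 and 0.688 in replicate 2.

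**Figure D3:**
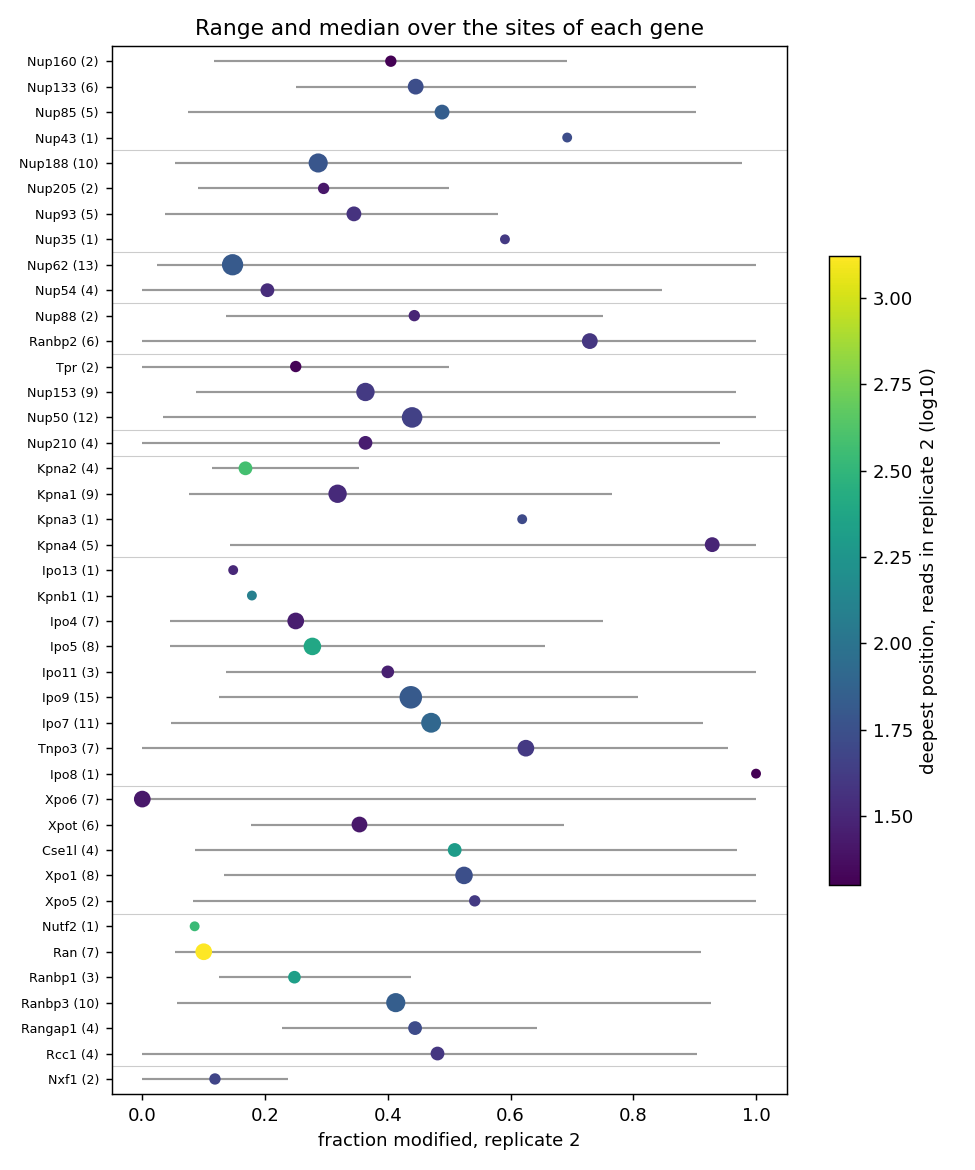
Fraction modified in replicate 2 (x axis) for the 41 genes with a site, in rows grouped by role; the point is the median over the gene's sites, the line runs from its lowest to its highest site, point size grows with the number of sites (in parentheses), and colour gives the reads at its deepest position on a log10 scale. Lines cover most of the axis in many genes, such as Nup62 from 0.0233 to 1, so the median of a gene says little about its single sites.

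In the scaffold of the pore, the outer ring or Y complex had 14 sites in 4 of 5 listed genes and the inner ring with its linkers 18 in 4 of 6. Nup85 (chromosome 11, 115455260 to 115474811) had 20 or more reads in both libraries at all 5 of its sites, with a mean of 0.504 ± 0.00796 (SD, n = 2). Its GGACA at position 630 had 0.778 over 20 reads and 0.902 over 55, and its AGACT at position 1252 had 0 over 26 and 0.0741 over 61. Nup43 had a GGACA at position 173 with 0.679 over 41 reads and 0.692 over 53. Nup133 had the most outer-ring sites, 6, between 0.250 and 0.902 in replicate 2. Of the inner ring, Nup188 (chromosome 2, 30176409 to 30234278) had 10 sites, and its GGACA sites at positions 5109 (0.5 and 0.231) and 4947 (0.867 and 0.633) gave the widest replicate gaps after Ranbp1 among sites with 20 or more reads in both libraries, at 21 and 20 reads in replicate 1. Its GGACC at position 5088 was steady, with 0.0769 and 0.0882. Nup35 had a GGACT at position 1072 with 0.563 over 24 reads and 0.591 over 41.

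The inner ring was the only 1 of the 10 role groups with both kinds of motif in which the A-ending sites did not have the higher median in replicate 2 (0.294 over 7 sites, against 0.345 over 11 others). Over the 12 inner-ring sites that both libraries listed, the A-ending sites had the higher median in each: 0.5 over 5 sites against 0.227 over 7 in replicate 1, and 0.5 against 0.345 in replicate 2. The exception thus rested on sites that replicate 1 did not list, among them the low GGACA sites of Nup188 at positions 2775 (0.0526) and 3033 (0.294).

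The central channel had 17 sites in Nup62 and Nup54, which form its repeat-rich core, and 15 of the 17 were not of the A-ending motif. Nup62 (chromosome 7, 44465512 to 44480236) had 13 sites with a median of 0.147 in replicate 2. The single GGACA, at position 879, had 0.917 over 13 reads and 1 over 45. The AGACT at position 2371 had 0.824 over 21 and 0.783 over 65, and the GGACT at position 2523 had 0.375 over 21 and 0.385 over 65. The other 10 lay between 0.0233 and 0.455 in replicate 2. Of these, the GGACC at position 1951 had 0.727 over 17 reads in replicate 1 and 0.455 over 59 in replicate 2. A second Nup62 transcript, offset by 11 bases and read at most 18 times in replicate 2, listed all 13 motifs. It had 1 over 11 reads at the position that matches 879.

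On the cytoplasmic side, Ranbp2, a giant nucleoporin that binds Ran and acts as a SUMO ligase (chromosome 10, 58282742 to 58330178), had 6 sites. Its GGACA sites at positions 8377, 8696 and 8951 had 0.909, 1 and 1 in replicate 1 and 0.875, 0.897 and 1 in replicate 2, over 11 to 15 and 28 to 36 reads. Its other GGACA, at position 9212, was lower and less steady, with 0.3 over 17 reads and 0.583 over 39. The GGACT at position 9094 was at 0 in both, over 17 and 38 reads. Nup88 had 2 sites, at 0.750 and 0.136, that replicate 1 did not list. In the nuclear basket, Nup50 (chromosome 15, 84807612 to 84827164) had 12 sites, Nup153 (chromosome 13, 46833381 to 46881416) 9 and Tpr 2. The 3 near-complete GGACA sites of Nup153, at positions 3742, 4119 and 4413, had 0.963, 0.95 and 0.968 in replicate 2. Replicate 1 had 1 at the latter 2, over 12 and 13 reads, and did not list the first. Of its other GGACA sites, position 3109 had 1 over 10 reads in replicate 1 and 0.471 over 24 in replicate 2, and position 4356 had 0.364 in replicate 2 alone. Nup210, of the membrane ring, had 4 sites between 0 and 0.941 in replicate 2, and Nxf1, the receptor for bulk messenger RNA export, had 2, at 0 over 38 reads and 0.237 over 47 in that library.

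The motifs of neighbouring sites overlapped by 1 base in Nup50 and Tnpo3 and abutted in Xpot. Their joined sequences, read from the deposited motifs and positions, are shown because the same letters gave different fractions in Nup50 and Tnpo3. The capitals mark the central adenosine of each listed motif.

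Nup50, positions 2245 and 2249: ggAcagAct
Tnpo3, positions 2290 and 2294: ggAcagAct
Xpot, positions 3195 and 3200: ggActggAcc

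In Nup50 the first adenosine had 0.846 in replicate 1 and 0.882 in replicate 2 and the second 0.667 and 0.632, each over 14 and 34 reads. In Tnpo3 the first had 1 over 5 reads and 0.862 over 33, and the second was at 0 over 33 reads in replicate 2 and not listed in replicate 1. The first positions of the 2 genes were alike in replicate 2 and the second ones were 0.632 apart. Over the whole series, 18 genes had this 9-base run with both adenosines counted as sites. The first adenosine had the higher fraction in 18 of 18, with a median of 0.945 in replicate 2 against 0.310 for the second, whose values ran from 0 to 0.889. In Xpot the values were 0.688 and 0.250 over 26 reads each, in replicate 2 only. Of the 10 member pairs within 20 bases on 1 transcript, 8 differed by more than 0.2 in replicate 2 (80.0%, Wilson interval 49.0% to 94.3%), against 67.5% of the 735 such pairs of the series. The widest after Tnpo3 was in Nup153, with 0.333 at position 4399 and 0.968 at position 4413. The read counts at the positions of a pair were equal or 1 apart within each library that listed both.

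**Figure D4:**
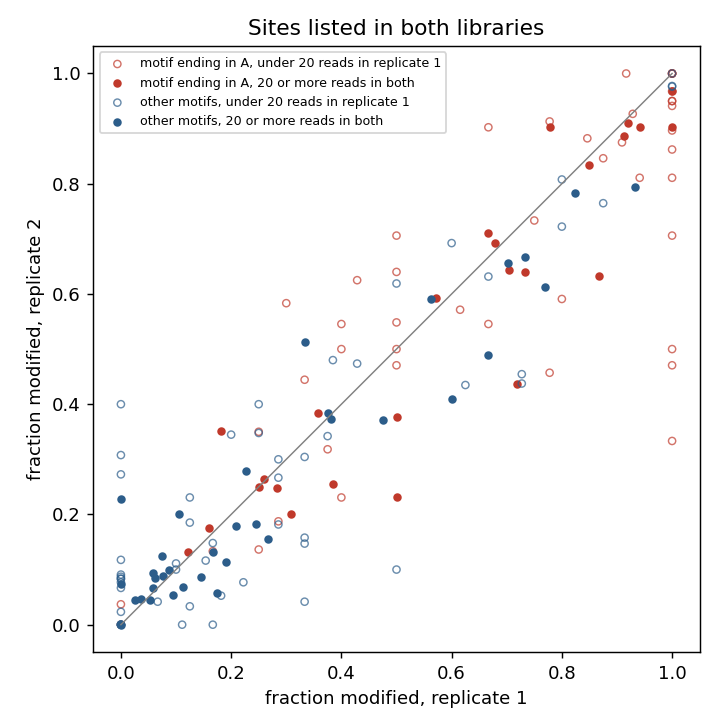
Fraction modified in replicate 1 (x axis) and replicate 2 (y axis) at the 159 sites listed in both libraries, with the line of equality in grey; filled points have 20 or more reads in both, open points fewer than 20 in replicate 1, red marks motifs ending in A and blue the others. Filled points lie closer to the line, with a median absolute difference of 0.0443 against 0.0909 for open points.

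The libraries were closest where both were deep. At the 60 sites with 20 or more reads in both, Pearson's r was 0.953 and Spearman's rho 0.939, given as a description over sites that share libraries and transcripts. Replicate 2 was higher at 24, lower at 34 and equal at 2, with a median difference of -0.02. Over the 5221 such sites of the series it was higher at 2390, lower at 2733 and equal at 98, with a median difference of -0.0043. A difference of more than 0.2 was found at 4 sites (6.67%, background 5.94%): the Ranbp1, Nup188 and Rangap1 positions given above. The next widest was the GGACT at position 1020 of Ipo5, with 0.600 over 41 reads and 0.410 over 145. In 4 sites (6.67%, background 9.37%) the fraction was at least 0.9 in both libraries, all GGACA: position 187 of Ran, 495 and 1426 of Rcc1 and 3532 of Cse1l. In 10 (16.7%, interval 9.31% to 28.0%; background 10.1%) it was 0.1 or less in both, none GGACA. Over all 159 shared sites the libraries differed by more than 0.2 at 20 (12.6%, background 15.7%). The widest of these gaps was in Kpna1, at the GGACA of position 1729, with 1 over 6 reads and 0.333 over 24.

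Which positions were listed did not follow depth alone. Replicate 2 was the deeper library, with a median of 2.38 times the reads of replicate 1 at the 60 sites with 20 or more reads in both, yet 23 member positions with 20 or more reads in replicate 1 were not listed in replicate 2 at any depth. These were 27.7% of the 83 member positions with that depth in replicate 1 (interval 19.2% to 38.2%, background 19%). They lay in 9 genes, and 8 of the positions were in Rangap1. Some of these 8 appear to count 1 motif on both Rangap1 transcripts, such as the GGACC at 2687 of one and 2735 of the other. The interval takes positions as independent, so no difference from the background is drawn from it. Of the 23, 9 were flanked on both sides by positions that replicate 2 listed with 20 or more reads, among them position 1432 of Kpna2, between positions with 356 and 377 reads, and an AGACT at position 2005 of Nup85 with 0.920 over 29 reads. In the other direction, 56 of the 215 sites (26%, background 25.2%) were not listed in replicate 1, and 18 of them lay between positions that it listed with 10 or more reads. A missing position is therefore no evidence of an unmodified one.

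Direct RNA reads start at the 3′ end, and coverage rose along the members' transcripts. Of 28 transcripts with at least 3 sites, 24 had more reads at the last site than at the first in replicate 2 (85.7%, against 80.7% of such transcripts of the series). In some transcripts only far positions qualified: the first site was at position 8377 in Ranbp2, 6275 in Tpr, 6044 in Nup205 and 5754 in Nup210. Within a transcript the fractions still spread widely, as the highest and lowest site differed by more than 0.5 in 25 of the 28 (89.3%, Wilson interval 72.8% to 96.3%), against 75% of the 2589 such transcripts of the series.

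The 12 listed genes without a site were Kpna6, Nup98, Nup107, Nup155, Nup214, Ranbp6, Ranbp9, Ranbp10, Ranbp17, Tnpo1, Tnpo2 and Xpo7, with between 6 and 19 reads at their deepest position in replicate 2. Of 59 protein-coding mouse genes whose RefSeq symbol fits the rule, 6 were not listed in either library: Kpna7, Nup37, Nup62cl, Nup210l, Ranbp3l and Xpo4. A list of 40 further pore, export and nuclear envelope genes was described in the same way. Of these, 37 were listed, 31 had a site and 20 had one with 20 or more reads in both libraries. Their 103 sites, of which 32.0% were of the A-ending motif, had a median of 0.391 in replicate 2 (all sites 0.345), and 42 (40.8%, background 37.5%) reached 0.5. Those with the most sites were Phax with 9, and Nxt1, Ndc1 and Tmpo with 7 each. Nxt1, the partner of Nxf1, had a mean of 0.439 ± 0.00695 over 7 sites with 20 or more reads in both libraries, Phax 0.383 ± 0.0458 over 4 and Tmpo 0.329 ± 0.0227 over 3 (each SD, n = 2). Ndc1 had none at that depth.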

How the data were processed

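For each library the authors deposited a plus and a minus table of transcript positions. The coverage is a deposited whole-number count of reads, and no position under 5 reads is listed. Beside it the authors give a fraction from 0 to 1, the fraction modified, with no denominator: at 18.1% of the members' sites in replicate 2 it is a whole multiple of 1 over the coverage (tolerance 5.1e-05), so reads were not counted back from it. Base caller, aligner and modification caller are not given in the sources used here. The submitters' processing notes name mm10, but the deposited gene start lies within 1000 bases of the RefSeq GRCm38.p6 start in 1 of 53 members, so the build of the coordinates is unsettled. The minus tables hold 0 member positions.

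Here the plus tables were joined on transcript and position with pandas 2.3.3. Median listed coverage is 10 reads in replicate 1 (26441 positions) and 12 in replicate 2 (50099). Joined sequences were assembled from motifs 4 or 5 bases apart. The summaries were tested on simulated data. Members and lists were chosen with earlier results of these data known. Named are all 18 genes with a site of 20 or more reads in both libraries, the extremes and the gene with most sites of each role, the 5 deepest and 5 most discordant sites, close pairs, and others picked after their values were seen. Alternatives were minimums of 10, 50 or no reads, 20 reads in both libraries, 1 transcript per gene, and each library alone.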

Additional observations from a re-analysis of the deposited data

How the results depend on the processing

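The number of sites followed the read minimum: 444 with none, 340 with 10 reads, 71 with 50 and 60 with 20 reads in both libraries, against 215. Genes with a site numbered 18 both with 50 reads and with 20 reads in both libraries, against 41. The median fraction, averaged over the libraries, was 0.361 ± 0.0192 (SD, n = 2) and fell to 0.296 with 20 reads in both libraries, a set in which Ran supplied 7 of 60 sites. The cause was not tested. Here and below, the main averages take replicate 1 over its 159 listed sites and replicate 2 over all 215. Their SDs therefore also hold that difference in sites. The median moved by less than 1 SD with the other read minimums and with 1 transcript per gene. With these settings and with 20 reads in both libraries, the share of sites at 0.5 or more (40.6% ± 4.82, SD, n = 2) also moved by less than 1 SD. So did the gap of the A-ending motif over the others (0.480 ± 0.0538), which ran from 0.435 to 0.518 over all settings. Each library alone lies by arithmetic within 1 SD of a mean of 2, so those settings say nothing on stability. The median absolute replicate difference was 0.0666, and 0.0778 with no minimum, 0.0769 with 10 reads, 0.0468 with 50, 0.0443 with 20 in both and 0.0667 with 1 transcript per gene. With each library alone the median was 0.348 or 0.375. No paired analysis was possible because the samples form 1 group. Just inside the minimum, 17 positions with 20 or 21 reads had a median of 0.400, and just outside it 18 with 18 or 19 reads had 0.563. Most sites were shallow: the median was 37 reads in replicate 2 and 15 in replicate 1.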
